A study of Mus musculus with 6 samples.

Results

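Disome footprints of 5 polyamine pathway genes were described in mouse liver. Such a footprint is the piece of a message that a stacked pair of ribosomes shields from nuclease digestion, and it is read as a mark of collided or queued ribosomes. The genes were chosen by a list of 7 Ensembl identifiers fixed by name and function, of which 5 were found among the 8941 identifiers in the tables: Odc1 (ENSMUSG00000011179), Srm (ENSMUSG00000006442), Oaz1 (ENSMUSG00000035242), Azin1 (ENSMUSG00000037458) and Sat1 (ENSMUSG00000025283). The other two, Amd1 and Sms, are not analysed here. The liver donors were C57BL/6JRj males (an inbred strain) aged 11 to 12 weeks, entrained for 2 weeks to 12 h of light and 12 h of dark. Livers were collected at ZT0, when lights came on (ZT is zeitgeber time, counted in hours from that moment), at ZT2 and at ZT12, when lights went off, with 2 libraries each and 2 livers pooled per library. The labels name no transgene or treatment and set the groups apart by time of day alone. A whole liver holds hepatocytes and other cells, and fewer cells of a type cannot be told apart from less RNA per cell.

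Polyamines (putrescine, spermidine and spermine) are small cations that bind RNA and that cells keep within narrow limits by feedback on translation. Odc1 encodes ornithine decarboxylase, which makes putrescine, and Srm encodes spermidine synthase, which turns putrescine into spermidine. Oaz1 encodes antizyme, which binds ornithine decarboxylase and sends it to the proteasome. Full-length antizyme is made only when ribosomes slip into another reading frame partway along the message, and polyamines raise the share that do. Azin1 encodes antizyme inhibitor, a relative of ornithine decarboxylase without enzyme activity that binds antizyme in its place, and its leader holds an upstream reading frame on which ribosomes pause when polyamines are abundant. Sat1 encodes spermidine/spermine acetyltransferase, which marks polyamines for export or back-conversion, and both the splicing and the translation of its message are known to respond to polyamines.

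In RefSeq's annotation of GRCm38.p6, Odc1 lies on chromosome 12 from 17544808 to 17551502 and Srm on chromosome 4 from 148591513 to 148594619. Oaz1 spans chromosome 10 from 80826656 to 80829290, Azin1 chromosome 15 from 38487430 to 38519294, and Sat1 chromosome X from 155213126 to 155216449. The gene model lengths that the deposited values imply were 1383 nucleotides for Odc1, 1344 for Azin1, 906 for Srm, 678 for Oaz1 and 213 for Sat1. All of these are multiples of 3 and correspond to 461, 448, 302, 226 and 71 codons. The Sat1 model of 71 codons is shorter than the reading frame of the full enzyme, and whether reads over the rest of that frame were counted is not given in the sources used here. The tables hold a single value per gene in RPKM, the reads on a gene per kilobase of its model after each library was scaled. They carry no position within the message, so a frameshift site, an upstream reading frame or any other pause site could not be looked at. Disome levels were also not set against message amount. In a level, rank or change given here, message amount, translation and pausing therefore cannot be told apart.

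Recovered reads totalled 6346387 to 12322651 per library, and the ZT12 libraries were the deepest. The libraries of ZT2 stood farthest apart, with Pearson's r of log2(RPKM + 1) across 8355 genes of 0.948 between them, against 0.989 at ZT0 and 0.976 at ZT12. ZT2 replicate 2 listed 250 genes at 0 and ZT2 replicate 1 listed 97, but none of the 5 polyamine genes was at 0 in any library. The 5 genes together held 407 to 1398 reads, or 0.00641% to 0.0113% of a library. Markers of hepatocytes and other liver cells could not be checked, because the tables pair no identifier with a symbol.

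Sat1 had the highest disome level of the 5 genes in all 6 libraries, and Odc1 had the lowest in all 6. The place of Sat1 depends on dividing by its short model: in reads not divided by length it was below Srm in 4 of the 6 libraries. Such reads favour longer models, so they do not settle the order either. The mean over the 6 libraries was 83.2 RPKM ± 30.3 (SD, n = 6) for Sat1, 23.0 ± 6.34 for Azin1, 22.4 ± 7.05 for Srm, 18.7 ± 8.51 for Oaz1 and 4.56 ± 1.35 for Odc1. The order of the 3 genes in the middle was not fixed. Azin1 was above Srm in 3 of 6 libraries, and the mean log2 difference of 0.04 between them was smaller than its spread of 0.38 (SD, n = 6). Srm was above Oaz1 in 3 of 6 libraries, with a mean log2 difference of 0.34 and an SD of 0.95. Sat1 stood above Azin1 by a mean log2 difference of 1.82 with an SD of 0.59, and Oaz1 above Odc1 by 1.96 with an SD of 0.85.

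**Figure D1:**
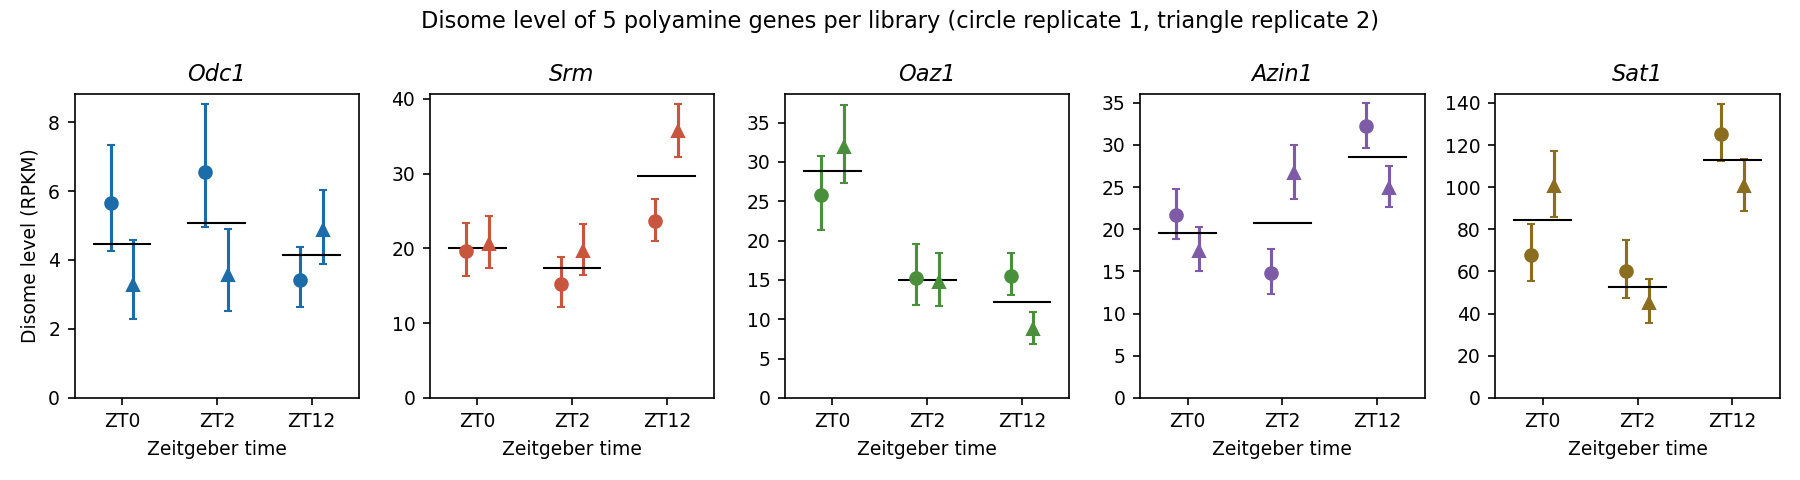
Disome level in RPKM (vertical axes, each starting at 0) of the 5 genes at ZT0, ZT2 and ZT12, with a symbol per library (circle for replicate 1, triangle for replicate 2), 95% exact Poisson counting intervals as error bars, and a black line at the mean of each time point. Oaz1 is highest in both ZT0 libraries, Sat1 lowest in both ZT2 libraries, and Odc1 overlaps between all time points.

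The genes took different places among all listed genes. The median gene had a mean of 7.47 RPKM. Sat1 ranked 1128th of 8941 by mean RPKM, Azin1 2511th, Srm 2554th, Oaz1 2844th and Odc1 5573rd. Odc1, the gene whose product starts the pathway, was thus the only one of the 5 below the median. Within single libraries Odc1 ranked between 4719th and 6191st, Azin1 between 2037th and 3205th, Srm between 1892nd and 3160th, Oaz1 between 2116th and 4109th, and Sat1 between 824th and 1657th.

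Short genes had higher RPKM in these tables, so the rank was also taken within classes of gene length. The 2236 genes of up to 864 nucleotides, which include Oaz1 and Sat1, had a median of 20.9 RPKM, and the next 2235 genes, up to 1398 nucleotides, which include Odc1, Azin1 and Srm, had 10.6 RPKM. Over all listed genes, the mean percentile was 86.6 for Sat1, 71.2 for Azin1, 70.8 for Srm, 66.3 for Oaz1 and 37.8 for Odc1. Among genes of the same length class, Sat1 was at the 75.8th percentile, Azin1 at 66.9, Srm at 66.2, Oaz1 at 45.2 and Odc1 at 29.3. By these means Oaz1 was therefore above the middle of all genes but below the middle of its length class. The second part did not hold at ZT0, where Oaz1 was at 54.4 and 58.9 in its length class. At ZT2 and ZT12 it lay between 30.9 and 42.8. The length classes are wide: this one runs from 54 to 864 nucleotides, with Oaz1 at 678 and Sat1 at 213. A percentile within a class therefore does not fully take out length. The place of Sat1 depends on dividing by its short model: by reads not divided by length it was at the 60.9th percentile, below Azin1 at 73.0 and Srm at 64.6.

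**Figure D2:**
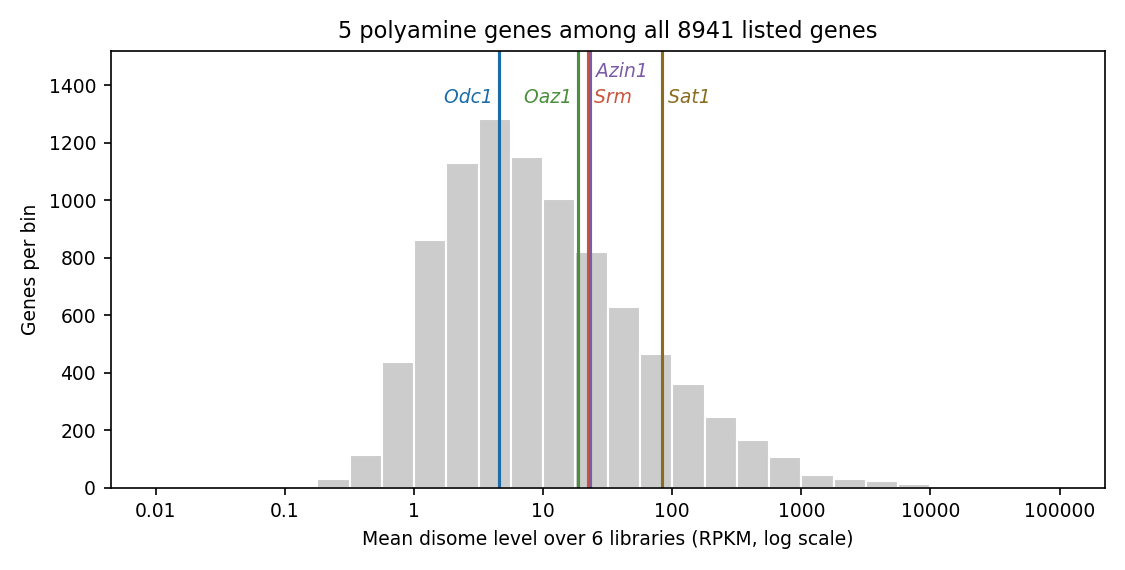
Histogram of mean disome level over the 6 libraries for all 8941 listed genes (horizontal axis in RPKM on a log scale, vertical axis genes per bin), with a coloured line at the mean of each of the 5 polyamine genes. Odc1 at 4.56 RPKM lies below the median of 7.47, the lines of Oaz1, Srm and Azin1 lie close together from 18.7 to 23.0, and Sat1 stands at 83.2.

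No member passed the test in any comparison of time points at a limma adjusted p of 0.05 (0 of 5 in each). Limma was fitted on log2(RPKM + 1) of 8355 genes in all 6 libraries, with Benjamini-Hochberg adjustment over all of them. Setting ZT2 against ZT0 called 0.0239% of all genes, the ZT12 to ZT0 comparison called 0.946% and the ZT12 to ZT2 comparison 2.06%, so a set of 5 genes without a call is near what all genes showed. At an unadjusted limma p of 0.05 the members counted were 2 of 5, 1 of 5 and 2 of 5, where all genes gave 13.7%, 14.5% and 19.2%. With voom on recovered reads, a limma setting that weights genes by their counts, 1 of 5 was called for ZT12 against ZT0, where voom called 3.39% of all genes, and none (0 of 5) in the other 2 comparisons, where it called 0.108% (ZT2 to ZT0) and 4.26% (ZT12 to ZT2). In the same order of comparisons, the median log2 change of the 5 was -0.21, 0.44 and 0.49, and over all genes tested it was -0.040, -0.0072 and 0.028. These comparisons share libraries, so their values are not independent of each other.

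**Figure D3:**
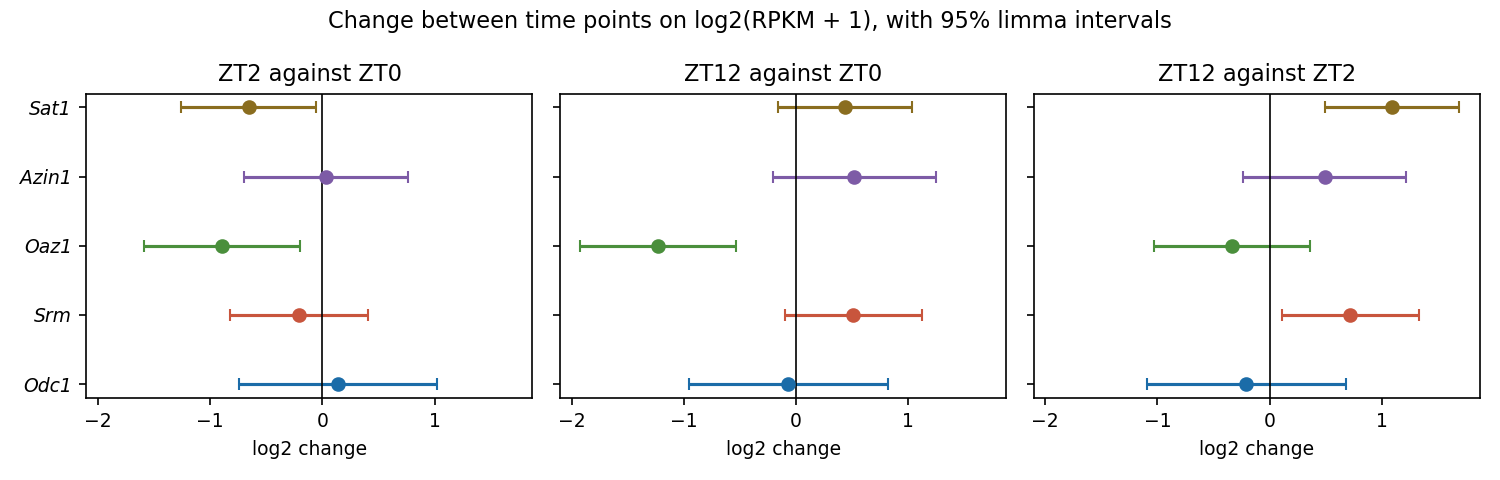
Change in disome level between time points for the 5 genes on the log2(RPKM + 1) scale (horizontal axis), a panel per comparison, with points for the limma estimate and bars for its 95% interval. The intervals of Oaz1 lie below 0 against ZT0 in both comparisons, that of Sat1 lies below 0 for ZT2 against ZT0, and those of Sat1 and Srm lie above 0 for ZT12 against ZT2, but none of these passed after adjustment over all 8355 genes.

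Among the genes of synthesis, Odc1 had no resolved course over the day. ZT0 gave 5.64 and 3.28 RPKM, ZT2 gave 6.56 and 3.56 RPKM, and ZT12 gave 3.42 and 4.86 RPKM. The libraries of every time point overlapped with those of the others, and replicate 1 was the higher at ZT0 and ZT2 but the lower at ZT12. These values rested on 35 to 83 reads per library. The log2 change was 0.14 ± 0.38 (SE) for ZT2 against ZT0, with a 95% interval from -0.74 to 1.02 and a limma adjusted p of 0.90. For ZT12 against ZT0 it was -0.07 ± 0.38 (SE), with an interval from -0.95 to 0.82 and a limma adjusted p of 0.96. For ZT12 against ZT2 it was -0.21 ± 0.38 (SE), with an interval from -1.09 to 0.68 and a limma adjusted p of 0.81. The intervals reached as far as 1.02 upward and -1.09 downward, so changes of up to such a size are not excluded, and all 3 directions turned when single libraries were left out.

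Srm, which acts on the product of ornithine decarboxylase, was highest at ZT12. ZT0 gave 19.6 and 20.6 RPKM, ZT2 gave 15.2 and 19.6 RPKM, and ZT12 gave 23.7 and 35.7 RPKM. Both ZT12 libraries were above all 4 others. ZT0 and ZT2 overlapped by a narrow margin, with 19.62 in ZT2 replicate 2 against 19.58 in ZT0 replicate 1. The mean at ZT12 was 1.48 times that at ZT0 and 1.71 times that at ZT2. The log2 change was 0.51 ± 0.26 (SE) against ZT0, with a 95% interval from -0.10 to 1.13 and a limma adjusted p of 0.42. Against ZT2 it was 0.72 ± 0.26 (SE), with an interval from 0.11 to 1.33, an unadjusted p of 0.027 and a limma adjusted p of 0.20. ZT12 replicate 2 carried much of the size: without it the log2 change was 0.23 against ZT0 and 0.43 against ZT2.

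Oaz1, the inhibitor of ornithine decarboxylase, was highest at ZT0. ZT0 gave 25.7 and 32.0 RPKM, ZT2 gave 15.3 and 14.7 RPKM, and ZT12 gave 15.5 and 8.72 RPKM. Both ZT0 libraries were above all 4 others, and the ranges at ZT2 and ZT12 overlapped. The mean at ZT0 was 1.92 times that at ZT2 and 2.38 times that at ZT12. The log2 change for ZT12 against ZT0 was -1.23 ± 0.30 (SE), with a 95% interval from -1.92 to -0.53, an unadjusted p of 0.0040 and a limma adjusted p of 0.13. With voom on recovered reads it was -1.29, at a limma adjusted p of 0.047, and over the other settings for this comparison the adjusted p lay between 0.070 and 0.74. For ZT2 against ZT0 the log2 change was -0.89 ± 0.30 (SE), with an interval from -1.59 to -0.20, an unadjusted p of 0.019 and a limma adjusted p of 0.29. For ZT12 against ZT2 it was -0.34 ± 0.30 (SE) at a limma adjusted p of 0.58, and without ZT12 replicate 2 it was 0.047. By the F test over the 3 time points the limma adjusted p was 0.15, and all genes had 1.26% called by that test.

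Azin1, which counters antizyme, was higher at ZT12 than at ZT0, with a wide gap between the ZT2 libraries. ZT0 gave 21.6 and 17.5 RPKM, ZT2 gave 14.8 and 26.6 RPKM, and ZT12 gave 32.2 and 24.9 RPKM. The ZT12 libraries were above both ZT0 libraries, and the ZT2 libraries spanned from below ZT0 to within ZT12. The log2 change for ZT12 against ZT0 was 0.52 ± 0.31 (SE), with a 95% interval from -0.21 to 1.25 and a limma adjusted p of 0.50. For ZT12 against ZT2 it was 0.49 ± 0.31 (SE) at a limma adjusted p of 0.44, and leaving out ZT2 replicate 1 gave 0.09 where leaving out ZT2 replicate 2 gave 0.89. For ZT2 against ZT0 it was 0.03 ± 0.31 (SE), with an interval from -0.70 to 0.76 and a limma adjusted p of 0.97.

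Sat1, the acetyltransferase of back-conversion, was lowest at ZT2. ZT0 gave 68.0 and 100.5 RPKM, ZT2 gave 60.1 and 45.1 RPKM, and ZT12 gave 125.4 and 100.4 RPKM. Both ZT2 libraries were below all 4 others, and ZT0 and ZT12 overlapped by a narrow margin. The mean at ZT12 was 2.15 times that at ZT2, and the mean at ZT0 was 1.60 times that at ZT2. The log2 change for ZT12 against ZT2 was 1.09 ± 0.25 (SE), with a 95% interval from 0.50 to 1.69, an unadjusted p of 0.0033 and a limma adjusted p of 0.087. Without ZT2 replicate 1 it was 1.30 at a limma adjusted p of 0.042, in a fit that called 7.31% of all genes, and over the other settings for this comparison the adjusted p lay between 0.051 and 0.29. That fit takes the spread of the remaining ZT2 library from the other time points. For ZT2 against ZT0 the log2 change was -0.66 ± 0.25 (SE), with an interval from -1.26 to -0.06, an unadjusted p of 0.035 and a limma adjusted p of 0.33, and without ZT0 replicate 2 it was -0.38. For ZT12 against ZT0 it was 0.44 ± 0.25 (SE) at a limma adjusted p of 0.49, and it ran from 0.16 without ZT0 replicate 1 to 0.72 without ZT0 replicate 2. The F test over the 3 time points gave a limma adjusted p of 0.14. Unadjusted, that F test was under 0.05 for 2 of the 5 genes, Oaz1 and Sat1, where 18.6% of all genes were.

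Members whose libraries did not overlap went both ways for ZT12 against ZT0 and a single way in each of the other comparisons. For ZT12 against ZT0, 2 of the 5 (Srm and Azin1) had both ZT12 libraries above both ZT0 libraries and 1 (Oaz1) had both below, where 26.6% and 27.8% of all genes tested did so. For ZT2 against ZT0, 2 of 5 (Oaz1 and Sat1) had both ZT2 libraries below and none (0 of 5) above, where all genes gave 24.9% and 21.5%. For ZT12 against ZT2, 2 of 5 (Srm and Sat1) had both ZT12 libraries above and none (0 of 5) below, where all genes gave 23.6% and 22.3%. Counts of this size lie near the background for a set of 5. The share of all genes with a time point beyond both others, as for Srm, Oaz1 and Sat1, was not counted.

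Ratios between members do not depend on how libraries were scaled, so they were compared within each library. The disome level of Azin1 against that of Oaz1 gave the clearest order of the 4 ratios. It is no measure of the proteins, and message amount, translation and pausing cannot be told apart in it. The ratio of Azin1 to Oaz1 RPKM ran as follows: ZT0 gave 0.841 and 0.547, ZT2 gave 0.970 and 1.81, and ZT12 gave 2.07 and 2.86. The 3 time points did not overlap, with ZT0 lowest and ZT12 highest. In reads not divided by length the ratio kept this order but ran from 1.08 to 5.67. Its place below or above equal levels thus depends on the model lengths. How many other pairs of genes share such an order was not looked at. The fold from the mean log2 ratios was 3.59 for ZT12 against ZT0. The exact permutation test over the 3 time points, added after seeing the data, gave p = 0.067. That is the smallest that 90 arrangements of 6 libraries allow, and it became 0.27 after Benjamini-Hochberg adjustment over the 4 ratios tested. The exact two-sided permutation test of ZT12 against ZT0 gave 0.33, also the smallest possible with 2 libraries against 2. Left-out libraries moved the log2 change for ZT12 against ZT0 between 1.53 and 2.16 around its value of 1.84.

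The ratio of Oaz1 to Odc1, the inhibitor to its target, ran as follows: ZT0 gave 4.56 and 9.73, ZT2 gave 2.33 and 4.13, and ZT12 gave 4.54 and 1.79. ZT0 was above the other time points, by a narrow margin to ZT12 replicate 1, and the exact permutation p over the 3 time points was 0.40. The ratio of Azin1 to Odc1 ran as follows: ZT0 gave 3.84 and 5.32, ZT2 gave 2.26 and 7.47, and ZT12 gave 9.41 and 5.13, with overlap between all time points and an exact permutation p of 0.73. The ratio of Sat1 to Srm ran as follows: ZT0 gave 3.47 and 4.87, ZT2 gave 3.95 and 2.30, and ZT12 gave 5.30 and 2.81, again with overlap and an exact permutation p of 0.73. This last ratio also depends on dividing by the short Sat1 model. In reads not divided by length it ran from 0.540 to 1.25, so Sat1 had fewer reads than Srm in 4 of the 6 libraries. Each of these p-values was 0.73 after adjustment over the 4 ratios. In RPKM Azin1 and Oaz1 both stood above Odc1 in 6 of 6 libraries, while in reads Oaz1 was below Odc1 in ZT12 replicate 2, at a ratio of 0.880.

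**Figure D4:**
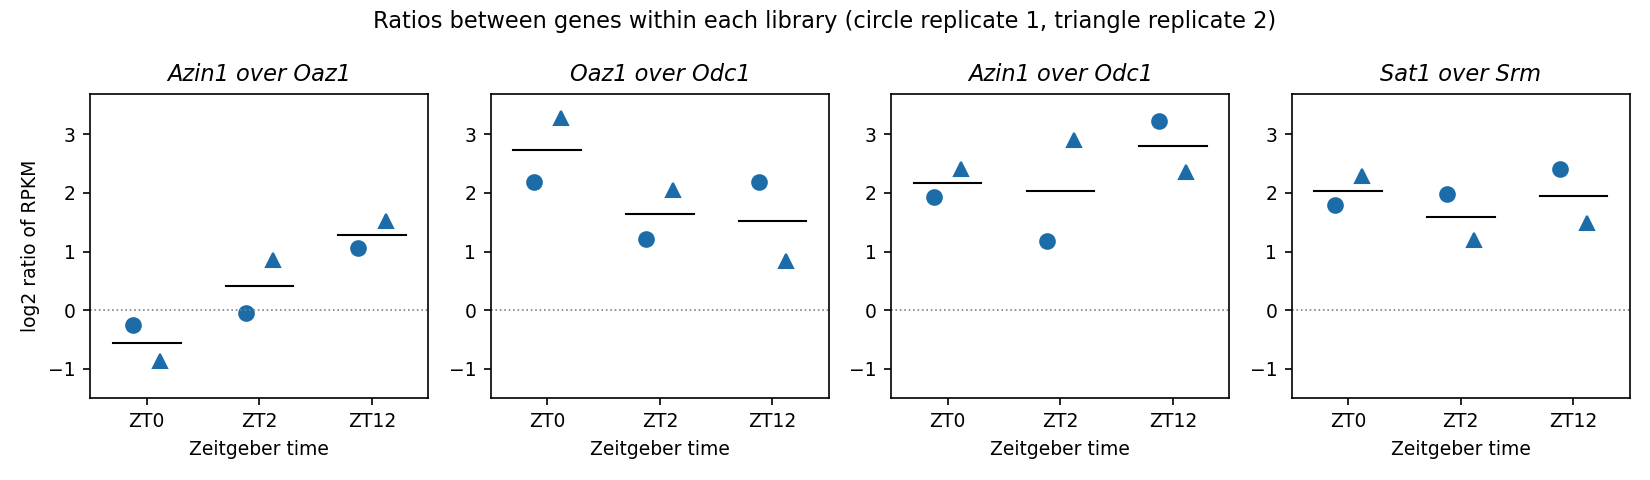
Log2 ratio of RPKM between pairs of genes within each library (vertical axis) at ZT0, ZT2 and ZT12, with a symbol per library (circle for replicate 1, triangle for replicate 2), a black line at each time point's mean and a dotted line at equal levels. The Azin1 to Oaz1 ratio is below 0 in both ZT0 libraries and at 1.05 and 1.52 at ZT12, while the other 3 ratios stay above 0 in all libraries.

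The spread between replicates was often larger than the counting of independent reads gives, for these genes as for all genes tested. More reads give a narrower interval, and the ZT12 libraries were the deepest. The ratio of replicate 2 to replicate 1, with its 95% exact Clopper-Pearson counting interval, left out 1 in 10 of 15 pairs of replicates, where 44.8% of pairs over all genes tested did so. It left out 1 for 3 of 5 genes at ZT0, 2 of 5 at ZT2 and 5 of 5 at ZT12, against 25.9%, 55.2% and 53.5% of all genes. The widest gap was in Odc1 at ZT2, where replicate 2 had 0.543 times the RPKM of replicate 1 (interval 0.350 to 0.835), from 38 and 56 reads. In Azin1 at ZT2 replicate 2 had 1.80 times the RPKM of replicate 1 (interval 1.45 to 2.24), from 276 and 123 reads. In Oaz1 at ZT12 replicate 2 had 0.561 times the level of replicate 1 (0.417 to 0.751), from 73 and 138 reads. Oaz1 at ZT2 and Srm at ZT0 were the closest pairs, at 0.963 (0.683 to 1.36) and 1.05 (0.823 to 1.35). The intervals cover counting error only and take each read as an independent molecule. Reads without molecular identifiers need not be independent, so the intervals may be too narrow.

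**Figure D5:**
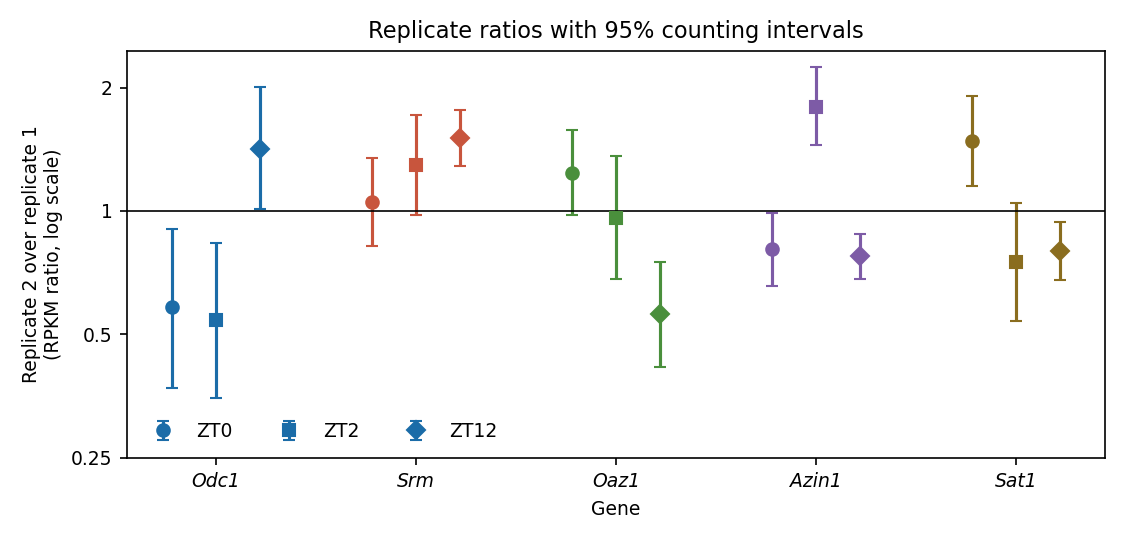
Ratio of replicate 2 to replicate 1 in RPKM (vertical axis, log scale) for the 5 genes at ZT0 (circles), ZT2 (squares) and ZT12 (diamonds), with 95% exact counting intervals as bars and a line at equal replicates. The interval leaves out 1 in 10 of 15 pairs, among them all 5 at ZT12.

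The genes whose pattern over the 6 libraries was most like a member were searched among tested genes averaging 10 RPKM or more, by Pearson's r of log2(RPKM + 1). For Oaz1 the nearest of 3925 genes was ENSMUSG00000021892, with r = 0.996 and Spearman's rho = 1.0 over 6 libraries. ZT0 gave 33.8 and 36.0 RPKM, ZT2 gave 27.4 and 26.9 RPKM, and ZT12 gave 27.6 and 21.0 RPKM, so its range was narrower than that of Oaz1. For Odc1 the nearest of 3926 genes was ENSMUSG00000008333, with r = 0.915 and rho = 0.60. ZT0 gave 45.4 and 40.9 RPKM, ZT2 gave 46.3 and 40.0 RPKM, and ZT12 gave 40.1 and 46.4 RPKM. An r above 0.9 was reached by 70 genes for Oaz1 and 3 for Odc1, by 49 for Sat1, 27 for Azin1 and 80 for Srm. The count that other genes reach was not taken, so these counts have no background. No member was the nearest gene of another, but Odc1, at a mean of 4.56 RPKM, was not among the genes searched. With 1 nearest gene taken from so many, this says little about the members. These correlations were picked as the highest of all genes searched, over 6 libraries that share depth and time point, and they carry no test.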

How the data were processed

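Disome profiling libraries of mouse liver were analysed from 1 table per library, each holding RPKM values the authors deposited for 8941 Ensembl identifiers. Per the labels' protocols, livers were lysed with cycloheximide, lysates of 2 mice were pooled, and RNase I (650 U, 45 min) trimmed each pool. The submitters' processing notes name STAR, Bowtie2 2.3.0, StringTie, edgeR, cutadapt and CASAVA 1.82, and the builds mm10 and GRCm38.p2. What each tool did, which genes were kept and how multimapping reads were counted is not given in the sources used here.

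The members and lists were chosen with earlier results of these data known. Symbols come from the list that chose the members, and all 7 were found in the RefSeq gene table, which holds no Ensembl identifier (0 of 49997 genes). The other pathway genes and the cell type markers could therefore not be matched. The rule for named genes was to give every member and the nearest gene of Odc1 and Oaz1.

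Within a gene, the libraries differed by ratios of whole numbers (relative tolerance 1e-13) times a constant per library that followed the upper quartile. Whole reads and lengths were recovered for 8941 genes, 74 of them multiplied through their length, and 95.16% of lengths were multiples of 3.

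Limma 3.58.1 in R 4.3.3 was fitted on log2(RPKM + 1), keeping genes that averaged 1 RPKM or more, with a mean per time point, no covariate, 3 residual degrees of freedom and a variance trend. Changes are on this scale, which understates those of low genes. Fold values between time points are ratios of mean RPKM, except for a ratio between genes, where the fold comes from mean log2 ratios. The scripts were tested on simulated data. Nothing in the labels says how the pools differ beyond their mice, so p-values measure the spread between these libraries. The permutation test over 3 time points was added after seeing the data. Between time points, the differences of replicate 1 and replicate 2 correlated at -0.076, -0.019 and 0.018, so no pairing by number was seen. Whether the numbers mark a shared preparation cannot be settled from these correlations.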

Additional observations from a re-analysis of the deposited data

How the results depend on the processing

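Of 311 values for the 5 genes under other settings, 300 kept their direction and side of the threshold, 9 turned direction and 2 passed the threshold. Many of the 311 values could not turn. F tests have no direction, so for them only the side of the threshold counts. Other filters, no variance trend, a replicate block and leaving out libraries of a time point not compared do not alter a log2 change. Voom on recovered reads called 1 member for ZT12 against ZT0 (Oaz1, -1.29), where it called 3.39% of all genes. The count for ZT12 against ZT2 was 0 to 1 when single libraries were left out, the 1 (Sat1) in a fit that called 7.31% of all genes. Scaling to the same summed RPKM turned Azin1 for ZT2 against ZT0 to -0.047. A fit with the replicate number as a block called 0 members in any comparison and changed no call. Without single libraries, the log2 change for ZT2 against ZT0 ran from -0.22 to 0.50 for Odc1 and from -0.37 to 0.43 for Azin1. For ZT12 against ZT0 it ran from -0.38 to 0.25 for Odc1. For ZT12 against ZT2 it ran from -0.57 to 0.16 for Odc1, from -0.72 to 0.047 for Oaz1 and from 0.89 to 1.30 for Sat1. Ratios moved likewise: for ZT12 against ZT2, Oaz1 over Odc1 ran from -0.79 to 0.55, Azin1 over Odc1 from -0.10 to 1.62 and Sat1 over Srm from -0.10 to 0.81. Azin1 over Odc1 for ZT2 against ZT0 ran from -0.999 to 0.73 and Sat1 over Srm for ZT12 against ZT0 from -0.55 to 0.37. Among genes of the same length class the percentiles of Odc1, Oaz1 and Sat1 were 29.3, 45.2 and 75.8. In reads not divided by length, the mean log2 ratio was 0.93 in place of 1.96 for Oaz1 over Odc1, 1.36 in place of 0.38 for Azin1 over Oaz1 and -0.23 in place of 1.86 for Sat1 over Srm, which follows from the model lengths. Odc1 did not pass the filter at 5 RPKM, so it has no value there. For the other shifts the cause was not tested. Reads per gene and library ran from 35 to 567, and Odc1, with at most 83, had the widest intervals.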
